A study of Arabidopsis thaliana with 16 samples.

Results

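PLETHORA7 (PLT7) is a transcription factor of the AP2 type, and in Arabidopsis it acts with its relatives PLT3 and PLT5 in the arrangement of organs around the shoot meristem. The protein was offered DNA of 2 sources, namely genomic DNA of shoot apical meristems (SAMs) and of inflorescence meristems (IMs). The comparison of SAM with IM DNA asks which sites were recovered from the DNA of one meristem and not from that of the other. Peaks of the 4 PLT7 libraries, 2 replicates per tissue, were joined into sites wherever they shared at least 1 bp. A site was called SAM-limited when both SAM libraries and neither IM library held a peak, and IM-limited in the opposite case. Of 38244 sites, 403 were SAM-limited (1.05%), 1725 were IM-limited (4.51%) and 21574 (56.4%) had a peak in all 4 libraries and are called shared below.

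All DNA came from Col-0, the reference accession. SAMs were taken from seedlings 9 days old grown on medium, and IMs from plants 4 to 8 weeks old grown on soil. Per the paper, plates stood under fluorescent tubes and soil plants under stronger LED light. Tissue, plant age, growth substrate and light source thus cannot be told apart. Plants had 16 h of light and 8 h of dark at 22°C, and about 500 meristems were pooled per replicate. In DNA affinity purification sequencing (DAP-seq), a protein made in vitro, here PLT7 with a 3xFLAG tag, pulls down fragments of naked genomic DNA that are then sequenced. DNA of this kind has lost its nucleosomes but keeps the methylated cytosines of the tissue it was taken from, which can raise or lower the affinity of a factor for its site. GFP with the same tag was the control protein, and PLT3 and PLT5 were tested on the same kinds of DNA, which makes 16 libraries in the series. Genomic DNA carries no marker expression, so the tissue labels could not be checked against marker genes, and the labels do not say whether different proteins were given DNA of the same extract.

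The lists held 30292 and 26660 peaks in SAM replicates 1 and 2 and 32232 and 31751 peaks in IM replicates 1 and 2. Column 7 of each list gives the fold enrichment of a peak over its local background. Its median lay between 3.53 and 3.75 in the 4 libraries. Read depth was not analysed here. The SAM-limited sites were among the rarest of the 15 combinations of libraries. Combinations of 1 SAM with 1 IM library, which do not follow the tissue, held 366 to 966 sites, and 3489 sites lacked a peak in SAM replicate 2 alone. The difference in number between the tissues moved with the length of the lists. When every list was cut to the 26660 highest peaks by fold enrichment, 752 sites were SAM-limited and 939 were IM-limited. With a reciprocal overlap of 50% in place of 1 bp, 723 sites were SAM-limited and 1944 were IM-limited.

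**Figure D1:**
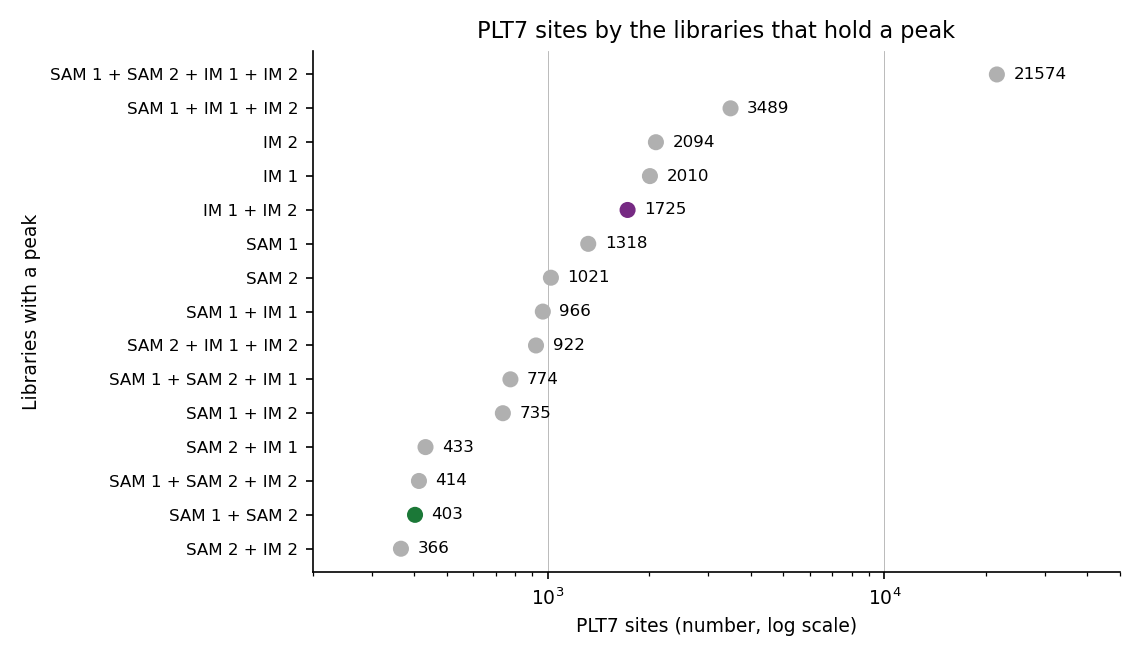
Number of PLT7 sites (x axis, log scale) for each combination of libraries with a peak (y axis), with SAM-limited sites in green and IM-limited sites in purple. The 403 SAM-limited sites lie between the 366 sites of SAM replicate 2 with IM replicate 2 and the 414 sites of both SAM libraries with IM replicate 2, and the 1725 IM-limited sites lie far below the 21574 shared ones.

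The summit windows of the strongest tissue-limited sites are shown so that their base composition can be compared. The summit base of the higher peak and the 50 bases on each side are printed from the plus strand of TAIR10.1, with the stretch closest to the consensus CACNNNTNCCNANG of AINTEGUMENTA and the PLTs, on either strand, in capitals. For each tissue these are the 3 sites with the highest fold enrichment in the weaker of the 2 replicates, leaving out sites that touch a GFP peak. The first 3 windows are SAM-limited and the last 3 are IM-limited.
AT3G33058 site, chr3:13598626-13598726: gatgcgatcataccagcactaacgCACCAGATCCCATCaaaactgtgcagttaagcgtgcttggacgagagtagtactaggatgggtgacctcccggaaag
AT3G30190 site, chr3:11824979-11825079: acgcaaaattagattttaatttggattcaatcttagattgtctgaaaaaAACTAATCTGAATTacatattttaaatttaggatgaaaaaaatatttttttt
AT3G33106 site, chr3:13861290-13861390: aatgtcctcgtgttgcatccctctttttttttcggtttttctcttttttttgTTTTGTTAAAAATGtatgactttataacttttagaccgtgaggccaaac
CIPK25 site, chr5:8659024-8659124: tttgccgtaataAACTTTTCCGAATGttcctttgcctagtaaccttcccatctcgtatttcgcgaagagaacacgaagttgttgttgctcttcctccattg
AT5G39861 site, chr5:15961002-15961102: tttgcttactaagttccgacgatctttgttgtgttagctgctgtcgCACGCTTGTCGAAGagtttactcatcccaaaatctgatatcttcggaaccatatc
GBF3 site, chr2:19000066-19000166: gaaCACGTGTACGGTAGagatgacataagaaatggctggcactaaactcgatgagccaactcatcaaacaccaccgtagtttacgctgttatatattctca
The GC contents of the 3 SAM-limited windows were 51.5, 18.8 and 32.7%, and each of the 3 IM-limited windows had 42.6%. The capitals differ from the 8 fixed letters of the consensus by 2, 4 and 3 mismatches in the SAM-limited windows and by 2, 1 and 2 mismatches in the IM-limited ones.

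Tissue-limited sites were weak sites. Rank within a library was expressed as a percentile, with 100 for the highest fold enrichment. SAM-limited sites had a median percentile of 14 in SAM replicate 1 and 15.1 in SAM replicate 2, against 62.8 and 58.7 for shared sites. IM-limited sites had medians of 19.6 and 21.7 in the IM libraries, against 65.2 and 64.7 for shared sites. Median fold enrichments were 2.42 and 2.52 at SAM-limited sites and 2.64 and 2.63 at IM-limited sites. Below the 25th percentile of a list lay 75.2 and 72.2% of the SAM-limited sites and 61.0 and 58.2% of the IM-limited sites, but 10.9 to 16.4% of the shared sites. At or above the 75th percentile in both replicates there was 1 SAM-limited site, and there were 2 IM-limited sites. These ranks describe the sites and were not tested, since a weak site is more easily missed in a further library.

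**Figure D2:**
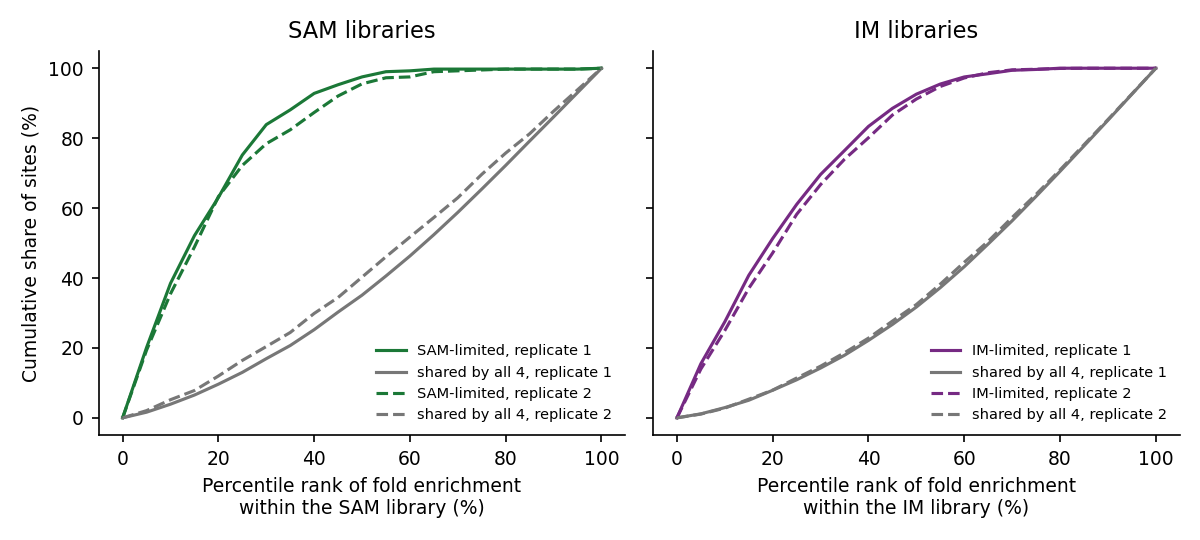
Cumulative share of sites (y axis, %) against the percentile rank of the fold enrichment within a library (x axis, %), for SAM libraries on the left and IM libraries on the right. The tissue-limited curves (coloured) reach 58.2 to 75.2% at the 25th percentile, whereas the curves of shared sites (grey) reach 10.9 to 16.4%.

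Many sites missed the rule by 1 peak in the other tissue, mostly of low rank. The SAM-limited sites with the least certain peaks had -log10 q-values of 1.35, 1.65 and 1.76 in the weaker replicate, and the IM-limited ones had 1.44, 1.44 and 1.67. The medians were 8.06 and 6.46 over all SAM-limited sites in SAM replicates 1 and 2. Over all IM-limited sites they were 11.2 and 9.17 in IM replicates 1 and 2. A further 1188 sites had a peak in both SAM libraries and in 1 IM library, and this extra IM peak had a median fold enrichment of 2.68 and a median percentile of 21.1. A further 4411 sites had a peak in both IM libraries and in 1 SAM library, whose median was 2.91 at a percentile of 28.8. In 79.1% of the latter the extra peak was in SAM replicate 1, the longer of the SAM lists. The nearest peak of the other tissue was often close to a tissue-limited site, at a median distance of 973 bp for SAM-limited and 1155 bp for IM-limited sites, and within 500 bp for 22.6 and 22.0% of them.

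SAM-limited sites were more AT-rich, and lay in coding sequence less often, than IM-limited and shared sites. The median GC content of the summit window (50 bp on each side) was 32.7% at the 402 nuclear SAM-limited sites, 39.6% at the 1724 nuclear IM-limited sites and 39.6% at shared sites, and 36.6% over windows of the nuclear genome. GC contents below 30% were found at 39.1% of the SAM-limited sites (95% Wilson interval 34.4 to 43.9, which covers counting error only), at 15.4% of the IM-limited sites (13.8 to 17.2) and at 12.4% of the shared sites (12 to 12.9). The CG dinucleotide, the main target of cytosine methylation, occurred on average 2.43 times in a SAM-limited window, 3.46 times in an IM-limited window and 3.70 times in a shared window. Sites are not replicates of a tissue, so these shares and medians describe the 4 libraries and carry no test between tissues.

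By position, 19.2% of SAM-limited summits were in coding exons (15.6 to 23.3), against 39.0% of IM-limited (36.7 to 41.3) and 38.8% of shared summits (38.1 to 39.4). Upstream regions, within 1500 bp of a gene start, held 32.8% of the SAM-limited summits and 19.3% of the IM-limited ones. Intergenic sequence held 23.1 and 6.73%, respectively. Coding exons make up 28.3% of the nuclear genome, upstream regions 21.7% and intergenic sequence 10.4%. The intervals of IM-limited and shared sites overlapped for both coding exons and upstream regions (17.5 to 21.2 and 18.5 to 19.5). In intergenic sequence, with 6.73 and 8.43%, they only just missed each other (5.64 to 8.01 against 8.06 to 8.81). The intervals of SAM-limited sites lay apart from both in all 3 classes. All these intervals cover counting error only and give no test between the kinds of site. Under all 12 alternative definitions of the sites, the median GC content of SAM-limited minus that of IM-limited sites stayed between -7.90 and -3.90 points, and the share in coding exons between -24.0 and -12.4 points. The SAM-limited share upstream or intergenic, 56.0% in all, fell to 44.0% with a reciprocal overlap of 50% and to 43.3% without SAM replicate 1.

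**Figure D3:**
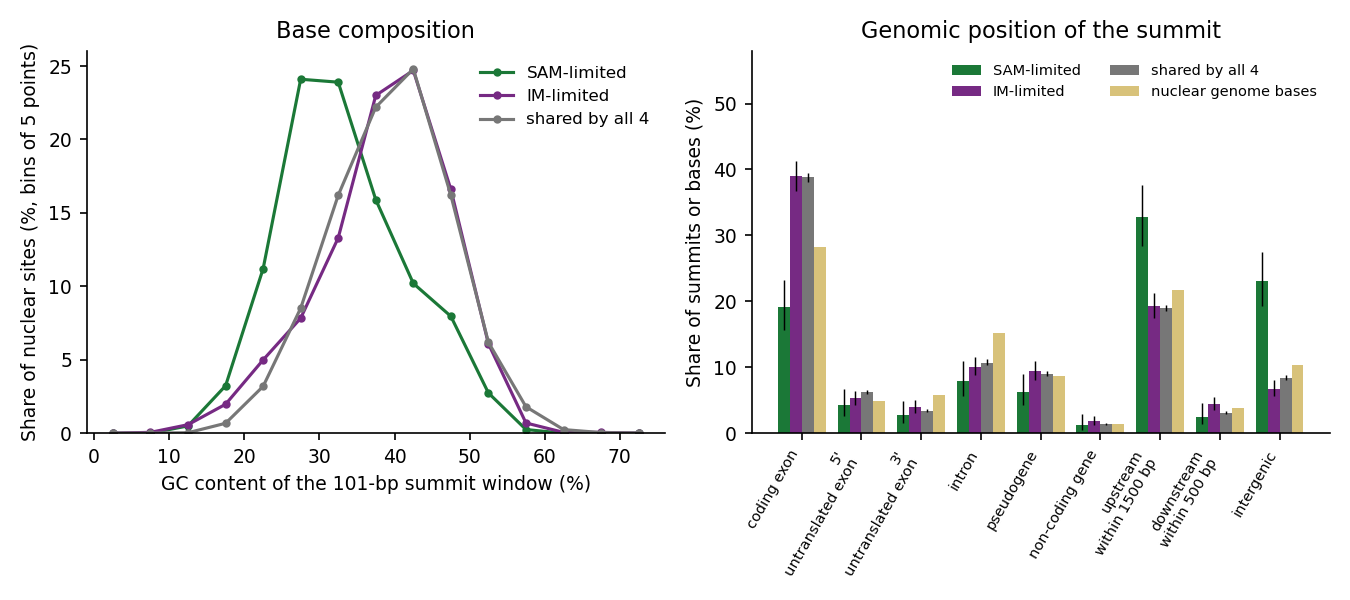
Left, share of nuclear sites (y axis, %) by GC content of the summit window in bins of 5 points (x axis, %). Right, share of summits in each class of genomic position for the 3 kinds of site, with 95% Wilson intervals, beside the share of nuclear genome bases. The SAM-limited curve peaks at lower GC content, with a median of 32.7 against 39.6%, and SAM-limited summits are fewest in coding exons (19.2%) and most frequent upstream (32.8%) and in intergenic sequence (23.1%).

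As tissue-limited sites had low ranks, they were also set beside shared sites of similar rank. Among sites below the 25th percentile by their mean SAM rank, the median GC content was 31.7% at 293 SAM-limited sites and 38.6% at 2840 shared sites, with 18.4 and 34.9% of the summits in coding exons. Among sites below the 25th percentile by their mean IM rank, the median was 38.6% at 1022 IM-limited sites and 36.6% at 2185 shared sites, with 34.5 and 28.4% in coding exons. The direction was opposite in the 2 tissues, since weak SAM-limited sites were poorer in GC, and weak IM-limited sites richer, than shared sites of like rank.

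The PLT consensus was rarer at tissue-limited than at shared sites, and about as frequent as at shared sites of the same low rank. It was matched at all 8 fixed letters in 0.995% of SAM-limited, 0.580% of IM-limited and 2.08% of shared windows, and in 0.108% of windows of the genome. With up to 1 mismatch, the shares were 8.21, 12.3 and 17.8%, and 3.45% in the genome. Below the 25th percentile by rank, 7.51% of the SAM-limited and 8.73% of the shared windows had such a match, and in the IM 9.59% of the IM-limited and 9.24% of the shared windows did. A match is a description of the letters and not evidence of a bound site. Gene-poor bins, which are 100-kb bins with fewer than 10 protein-coding gene starts, held 15.2% of SAM-limited, 13.2% of IM-limited and 13.2% of shared summits, beside 13.5% of nuclear bases.

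Peaks of the GFP control were AT-rich. Between 84.9 and 93.4% of the nuclear GFP peaks had a GC content below 30%, against 14.1 to 15.4% of the PLT7 peaks. A GFP peak of either tissue overlapped 17.9% of the SAM-limited sites (14.4 to 21.9), 14.3% of the IM-limited sites (12.7 to 16.0) and 13.8% of the shared sites (13.4 to 14.3). Without the sites that touch a GFP peak of their own tissue, 367 SAM-limited and 1544 IM-limited sites were left, with median GC contents of 32.7 and 40.6%.

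PLT3 and PLT5 libraries were not used to choose the sites, but they may have been made from the same DNA extracts as the PLT7 libraries. For each library, the share of SAM-limited sites that carried a peak was set against the share of IM-limited sites. PLT3 peaks lay at 60.3 and 32.8% of the SAM-limited sites in the SAM libraries and at 33.3 and 39.0% in the IM libraries. At the IM-limited sites the PLT3 shares were 45 and 21.7% in the SAM against 48.6 and 46.8% in the IM. The log2 ratio of the SAM-limited to the IM-limited share was 0.42 and 0.59 in the SAM libraries of PLT3 and -0.55 and -0.26 in its IM libraries. For PLT5, whose lists were shorter and covered 1.74 to 6.70% of the SAM-limited and 0.290 to 5.91% of the IM-limited sites, it was 2.27 and 2.58 in the SAM against 0.07 and 0.17 in the IM. The SAM ratios of PLT5 rested on few sites, with 27 SAM-limited and 24 IM-limited sites in replicate 1 and 7 and 5 in replicate 2. In both proteins the SAM libraries were above the IM libraries without overlap. The mean difference was 1.61 (exact permutation test over the 8 libraries, labels exchanged within protein, two-sided p = 0.0556, the smallest that 36 arrangements allow). This p-value takes the 8 libraries as independent, which would not hold if proteins shared DNA extracts. The difference was 0.92 in PLT3 alone and 2.30 in PLT5 alone (exact permutation p = 0.333 each, the smallest that 6 arrangements allow). In the GFP libraries the ratio was 0.41 and -0.19 in the SAM against 0.21 and 0.23 in the IM, where the groups overlapped (difference -0.11, exact permutation p = 1.00).

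The preference was a matter of degree. A PLT3 peak in both SAM libraries and neither IM library was found at 30 of the SAM-limited sites (7.44%) and 25 of the IM-limited sites (1.45%), beside 1.52% of all PLT7 sites. The opposite pattern, both IM libraries and neither SAM library, was found at 10 SAM-limited (2.48%) and 131 IM-limited sites (7.59%), beside 2.92% of all sites. Most tissue-limited PLT7 sites thus did not carry the corresponding PLT3 pattern. PLT3 peaks in all 4 libraries were found at 36 SAM-limited (8.93%) and 162 IM-limited sites (9.39%), beside 44.9% of all PLT7 sites. No PLT3 library had a peak at 88 (21.8%) and 449 (26.0%) of them, beside 12.5% of all sites. PLT5 gave no such pattern under this rule. Peaks in both SAM and neither IM library lay at 1 SAM-limited site (0.248%), beside 0.256% of all sites. Peaks in both IM and neither SAM library lay at 5 SAM-limited sites (1.24%) and 19 IM-limited sites (1.10%), beside 4.22% of all sites.

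The base composition of tissue-limited sites moved with tissue in PLT3 as well, but not in PLT5. When the same rule was applied to PLT3 peaks, the 764 nuclear sites limited to the SAM had a median GC content of 34.7% and the 1389 limited to the IM one of 40.6%, with 24.2 and 42.4% of summits in coding exons. For PLT5 both medians were 39.6%, over 97 and 1710 sites. A second measure needs no call of presence or absence. At nuclear sites shared by all 4 libraries of a protein, the median log2 fold enrichment of AT-rich sites (GC below 30%) was taken relative to that of GC-rich sites (45% or more). In the PLT7 libraries it was -0.21 and -0.14 in the SAM against -0.39 and -0.34 in the IM. In PLT3 it was -0.04 and -0.05 in the SAM against -0.20 and -0.17 in the IM, and in PLT5 -0.04 and -0.07 against -0.14 and -0.12. AT-rich sites were thus weaker than GC-rich sites in every library, and more so on IM DNA, with no overlap between tissues in any of the 3 proteins. The difference between SAM and IM was 0.11 over the PLT3 and PLT5 libraries (exact permutation test within protein, two-sided p = 0.0556, the smallest possible) and 0.19 in PLT7, where 2 against 2 libraries cannot go below an exact p of 0.333. The test over PLT3 and PLT5 again takes their libraries as independent. This measure was chosen after the base composition of the tissue-limited sites had been seen. Its part in the tissue-limited calls was not tested, and a difference between the DNA preparations cannot be told apart from one between the meristems.

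**Figure D4:**
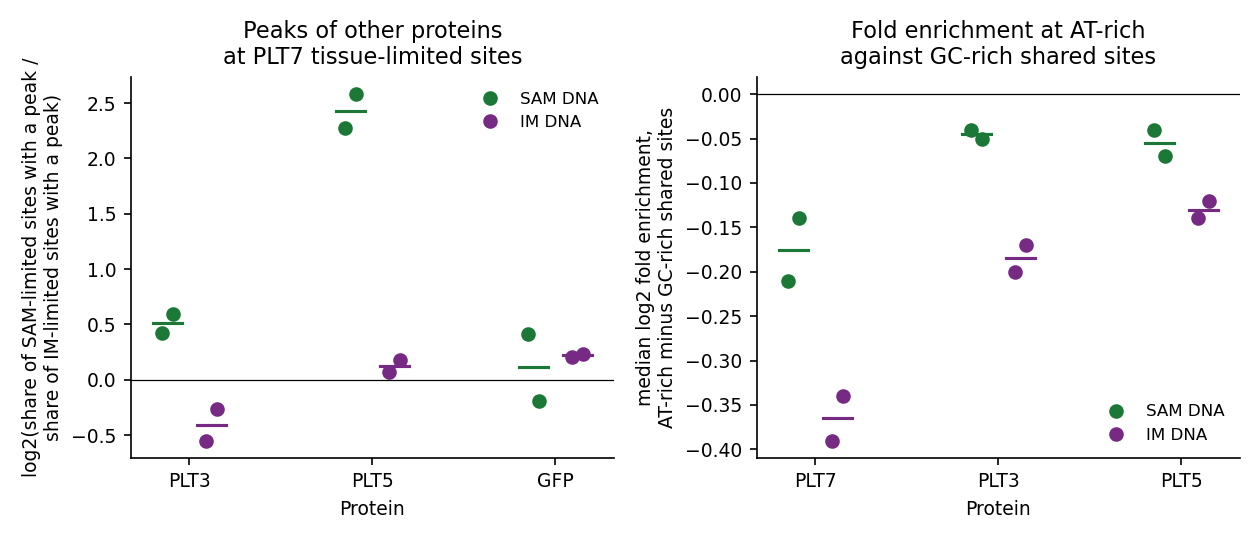
Left, log2 ratio of the share of SAM-limited to IM-limited PLT7 sites with a peak, for each PLT3, PLT5 and GFP library. Right, median log2 fold enrichment of AT-rich minus GC-rich shared sites, for each PLT7, PLT3 and PLT5 library (points are libraries, lines are means of 2, SAM in green and IM in purple). SAM and IM libraries do not overlap for any PLT protein in either panel, and they overlap for GFP.

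The strongest SAM-limited site was the only one with a high rank in both replicates. It lay at chr3:13598510-13598752, in a gene-poor bin 3124 bp upstream of the pseudogene AT3G33058, and is the first sequence above. Its fold enrichments were 14 and 15.1 in the SAM, at percentiles of 99.9 and 100.0, and neither IM library of PLT7 had a peak there. Peaks of other proteins did not follow the tissue, since PLT5 reached 8.54 and 10.5 in the SAM against 9.33 and 9.67 in the IM, and PLT3 had a peak of 15.2 in SAM replicate 2 and of 13.6 in IM replicate 2. The window is one of a repeat. The nuclear genome held a further 452 stretches with up to 15 mismatches to this window, 366 of them on chromosome 3, and between 46 and 59 of these carried a peak in each PLT7 library. Reads of such a family can be placed at different copies in different libraries, so its tissue call is uncertain. Over whole classes only exact copies were counted, which misses families with mismatches such as this one. The 31 bases at the summit occurred more than once in the genome at 2.24% of SAM-limited, 5.57% of IM-limited and 3.05% of shared sites.

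The remaining SAM-limited sites of highest fold enrichment were moderate. PUP19, which belongs to the purine permease family, had a site 176 bp upstream of its start with fold enrichments of 3.63 and 3.92. KRP6, an inhibitor of cyclin-dependent kinases, had one 632 bp upstream with 3.43 and 4.71, where PLT3 had a peak in SAM replicate 1, PLT5 in both SAM replicates and neither protein in the IM. BLH7, a homeodomain protein of the BELL class, had a site 415 bp downstream of its start with 3.54 and 3.98. Sites were also found 1462 bp upstream of AT3G29300, with 3.94 and 3.62, and 905 bp upstream of the pseudogene AT4G37620, with 3.67 and 3.51. The latter had an IM peak of PLT7 only 135 bp away and carried PLT5 peaks in both IM libraries. GLN1;4, a cytosolic glutamine synthetase, was the nearest gene to a site 4388 bp from its start with 3.80 and 3.39. Further sites lay at or near HDK, AT1G07070, AT3G25795, AT3G30190 and AT3G33106, with fold enrichments between 3.45 and 4.15. Copies with mismatches were not counted for these windows. Whether any of them, such as the AT3G33106 window shown above, belongs to a repeat was not tested. Of the 12 sites, 5 were intergenic and none was in a coding exon. No PLT3 or PLT5 library had a peak at 5 of the 12, among them the PUP19 site.

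The strongest IM-limited sites were mostly in coding exons. CIPK25, a protein kinase that acts with calcineurin B-like calcium sensors, had a site in its coding exon 278 bp downstream of the start, with fold enrichments of 5.09 and 4.93. GBF3, a bZIP factor that binds G-boxes, had one 64 bp upstream of its start with 5.48 and 4.69, and the nearest SAM peak was 10980 bp away. CYP88A3, an ent-kaurenoic acid oxidase of gibberellin synthesis, had the nearest gene start to a site 1574 bp upstream, in a coding exon of a neighbouring gene, with 4.53 and 4.30. A site 660 bp upstream of AT3G50280, likewise in a coding exon next to it, had 4.42 and 4.16. The site in the pseudogene AT5G39861, which lay 459 bp upstream of the pseudogene AT5G39862, had 5.52 and 4.88, and PLT3 peaks were present there in both IM and neither SAM library. Further sites lay at AT4G04221 with AT4G04223, AT4G03450, AT1G24390, AT5G49950, AT3G29185, AT2G44195 with AT2G44200, and near AT3G33076. Their fold enrichments lay between 4.18 and 5.21. Of the 12 sites, 7 were in coding exons. No PLT3 or PLT5 library had a peak at 7 of the 12, and only at the AT5G39861 site did both IM libraries of PLT3 have one.

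Few genes had a tissue-limited site near their start. Summits of SAM-limited sites fell between 1500 bp upstream and 500 bp downstream of the start of 193 of 27444 protein-coding genes (0.703%), and those of IM-limited sites in this window of 844 genes (3.08%). Shared sites were found at 9360 genes (34.1%). No site of another kind was present at 127 of the 193 genes and at 546 of the 844 genes. None of the genes had a SAM-limited and an IM-limited site together.

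Genes with known roles in shoot meristems were then looked up in lists that had been drawn up with earlier results of these data known. Auxin, whose local maxima place new organs, is made by the YUC flavin monooxygenases, and the 14 genes for auxin synthesis included 1 with a SAM-limited and 4 with an IM-limited site (28.6%), beside 3.08% of all protein-coding genes. Only 1 of the 14 had a shared site (7.14% beside 34.1%). YUC9 had a SAM-limited site 352 bp upstream with fold enrichments of 2.85 and 2.75, where PLT3 had a peak in SAM replicate 1 alone. YUC8 had an IM-limited site in its coding exon, 258 bp downstream of the start, with 2.72 and 2.65, and both IM and neither SAM library of PLT3 had a peak there. YUC4 had one 418 bp downstream with 2.29 and 2.06, where PLT3 had peaks in both IM libraries and in SAM replicate 1. YUC6 had one 790 bp upstream with 1.77 and 1.91, at percentiles of 1.03 and 2.77, and PLT5 had peaks there in both IM and neither SAM library. YUC3 had one 1182 bp upstream with 2.23 and 2.28, which overlapped GFP peaks of both IM libraries. None of these 5 sites ranked above a percentile of 27 in either replicate.

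In the cytokinin list of 58 genes, 2 had a SAM-limited (3.45%) and 3 an IM-limited site (5.17%), beside 0.703 and 3.08% of all protein-coding genes. The receptor gene AHK4 had a SAM-limited site 445 bp upstream with 2.33 and 2.22, where PLT3 had peaks in both SAM and neither IM library, although a GFP peak of IM replicate 1 overlapped it. AHP3, which passes the phosphate on from the receptors, had one 54 bp upstream with 2.03 and 2.11. The response regulators ARR1 and ARR17 had IM-limited sites with 2.01 and 2.01, and with 1.93 and 1.96. Both SAM libraries of PLT3 had peaks at both sites, as did its IM replicate 1 at ARR1 and its IM replicate 2 at ARR17. CKX7, an enzyme that degrades cytokinin, had an IM-limited site in its coding exon with 3.04 and 3.30.

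Other lists held single genes. BLH8, a BELL homeodomain protein of the shoot meristem, was the only 1 of 31 meristem and boundary genes with a tissue-limited site, which was SAM-limited, 730 bp upstream, with 2.90 and 2.75, and had PLT3 peaks in both SAM and neither IM library. TFL1, which keeps the inflorescence meristem indeterminate, was the only 1 of 30 flowering genes, with an IM-limited site 1226 bp upstream (2.48 and 2.15), where PLT3 had a peak in replicate 1 of both tissues. SPL7, a copper-responsive relative of the phase change factors, was the only 1 of 48 phase change and growth genes, with an IM-limited site (2.68 and 2.49) and PLT3 peaks in both IM and neither SAM library. Among 26 cell cycle and gibberellin genes, GA3OX2, which makes active gibberellin, had a SAM-limited site (2.46 and 2.05). GA2OX1, which inactivates gibberellin, had an IM-limited site (1.89 and 2.44), where the only PLT3 peak was in SAM replicate 1. The D-type cyclin CYCD6;1 had an IM-limited site as well (2.60 and 3.01). No tissue-limited site was found at the 7 PLT/AIL genes, the 20 auxin transport genes, the 52 auxin response genes or the 17 organ polarity genes, of which 4, 6, 19 and 6, respectively, had a shared site, beside 34.1% of all genes. With 0.703 and 3.08% of all genes carrying a tissue-limited site, lists of this length say little by holding none.

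The ranks of shared sites were correlated across the 4 libraries, with sizeable differences at single sites. The correlation of ranks over 21574 sites was 0.886 between the SAM replicates, 0.924 between the IM replicates and 0.850 to 0.906 between tissues, where the sites share their sequence and local composition. SAM replicate 2, the shortest list, gave the lowest values. The mean SAM and IM ranks differed by 10 percentile points or more at 6693 of the 21574 sites and by 20 or more at 1536 (7.12%). The median difference, SAM minus IM, was -2.61 points. Single libraries differed by a median of 7.37 points between the SAM replicates and 5.32 between the IM replicates, against 6.16 to 8.70 between tissues. The counts of differing ranks are therefore not a measure of tissue alone. Of the 100 highest sites of a library, 35 were among the 100 highest in all 4, and of the 1000 highest, 484 were. The absolute difference between SAM and IM in log2 fold enrichment, with each library centred on its median, had a median of 0.13 and exceeded 1 at none of the sites. Limma called 6 sites higher in the SAM (0.0278% of those tested) and 6 higher in the IM (0.0278%) at a Benjamini-Hochberg adjusted p below 0.05, and 2255 sites (10.5%) had an unadjusted p below 0.05. These counts were fragile. Leaving out IM replicate 1 left 0 and 1 calls (1080 sites at an unadjusted p below 0.05), leaving out IM replicate 2 left 1 and 1, leaving out SAM replicate 1 gave 154 and 142, and leaving out SAM replicate 2 gave 6 and 16.

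The sites higher in the SAM were more AT-rich than those higher in the IM. All 6 of the former, and 4 of the 5 nuclear sites of the latter, were upstream of a gene or intergenic, beside 27.4% of all nuclear shared sites. Position thus did not separate the 2 directions. GC contents lay between 21.8 and 34.7% at the 6 sites higher in the SAM and between 35.6 and 51.5% at the 5 nuclear sites higher in the IM. The windows of 3 of these sites are shown for comparison with the tissue-limited ones and printed in the same way, the first pair higher in the SAM and the last higher in the IM.
HCAR site, chr1:1286842-1286942: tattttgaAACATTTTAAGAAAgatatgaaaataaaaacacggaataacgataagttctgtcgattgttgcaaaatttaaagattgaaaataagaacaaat
PRS site, chr2:12261385-12261485: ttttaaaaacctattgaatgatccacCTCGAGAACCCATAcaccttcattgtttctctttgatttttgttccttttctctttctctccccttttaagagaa
AT1G12615 site, chr1:4293156-4293256: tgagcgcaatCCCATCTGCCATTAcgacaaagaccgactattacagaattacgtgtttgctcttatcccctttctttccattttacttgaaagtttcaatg
The HCAR window had a GC content of 22.8%, the PRS window 34.7% and the AT1G12615 window 39.6%. When the trend of log2 fold enrichment with GC content was removed from each library, an alternative chosen after seeing the data, limma called 1 site higher in the SAM and 2 higher in the IM, all 3 of them among the 12. The mitochondrial site was not part of that fit. At the 8 nuclear sites that lost the call, the log2 differences changed little, from between 0.74 and 0.81 to between 0.61 and 0.72 towards the SAM, and from between -0.81 and -0.74 to between -0.77 and -0.70 towards the IM.

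HCAR, a reductase of the chlorophyll cycle, carried the largest difference towards the SAM, 273 bp upstream of its start at chr1:1286710-1287962. Fold enrichments were 5.03 and 5.32 in the SAM against 2.80 and 2.92 in the IM, without overlap (log2 0.97 ± 0.15 SE, n = 2 per tissue, limma adjusted p = 0.00267, and 0.0143 with the GC trend removed). The SE here and below is that of limma, with each site's variance drawn towards that of all shared sites. GFP peaks overlapped this site, with 3.52 in SAM replicate 2 and 8.21 and 6.09 in the IM. The site joined 2 peaks in 3 of the 4 PLT7 libraries, so the highest peaks compared need not be the same. When sites were limited to 1 peak per library, limma called 0 sites higher in the SAM and 4 higher in the IM (2100 sites at an unadjusted p below 0.05), and with normal scores of the ranks none of the 12 was called. PRS, a WUSCHEL-related homeobox gene of lateral organ margins, had a site 578 bp upstream with 3.29 and 3.39 in the SAM against 2.13 and 2.10 in the IM (log2 0.77 ± 0.15 SE, limma adjusted p = 0.0335, and log2 0.72 with a limma adjusted p of 0.0686 when the GC trend was removed). PLT3 values there were 2.87 and 2.04 in the SAM against 2.29 and 1.97 in the IM, which overlapped. ELF4-L3, a relative of the clock gene ELF4, had 7.87 and 5.73 against 4.69 and 3.73 at a site 931 bp upstream of its start. PLT3 had peaks there of 3.22 and 3.13 in the SAM and none in the IM, and PLT5 had 2.46 and 2.13 in the SAM and none in the IM. ZCF37 had 2.55 and 3.28 against 1.85 and 1.72 at a site that overlapped GFP peaks of both SAM libraries (4.80 and 4.93) and of IM replicate 1 (4.10). The other 2 sites were intergenic, 3146 bp upstream of the pseudogene AT1G35760 and 3651 bp upstream of BHLH32, a basic helix-loop-helix gene, with log2 differences of 0.74 each. PLT3 had 2.63 and 2.56 in the SAM against 2.07 and 2.40 in the IM at the AT1G35760 site. At the BHLH32 site it had 2.71 and 2.44 in the SAM against 3.20 and 2.60 in the IM, which did not follow PLT7.

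The largest difference towards the IM was intergenic, at chr1:4292982-4293633 and 1334 bp downstream of the start of AT1G12615. Fold enrichments were 2.68 and 2.31 in the SAM against 5.42 and 5.25 in the IM (log2 -0.99 ± 0.15 SE, n = 2 per tissue, limma adjusted p = 0.00216, and 0.00211 with the GC trend removed). PLT3 had 1.96 and 2.44 in the SAM against 2.76 and 3.15 in the IM, and PLT5 had no peak in the SAM against 1.75 and 2.20 in the IM, so that the order was the same with 3 proteins. A site between AT5G55790 and AT5G55800, 120 and 239 bp upstream of their starts, had 3.31 and 2.92 against 6.45 and 5.36, and PLT3 had 2.57 and 2.16 against 3.96 and 4.48. CDKD1;3, a kinase that activates cyclin-dependent kinases, had 1.99 and 2.16 against 3.83 and 3.68 at a site in an intron 1358 bp upstream of its start. PLT3 had peaks there in the IM alone, with 2.32 and 2.49. Sites upstream of AT2G16535 and AT2G37950 had log2 differences of -0.90 and -0.75, and the former overlapped a GFP peak of SAM replicate 2. The sixth was in the mitochondrial genome, at chrM:164106-164624. The rule for named sites covers nuclear sites, and this one was named after its values were seen. It measured 16 and 11.3 on DNA of SAMs and 31.6 and 24.2 on DNA of IMs. PLT3 had 9.20 and 8.74 against 18.5 and 15.6 there, and PLT5 6.97 and 7.53 against 13.5 and 12.7.

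Over the sites with a peak in all 4 PLT3 libraries, the PLT3 values can be read against their background. After centring, both SAM values of PLT3 were above both IM values at 2 of the 4 sites higher in the SAM with PLT7, beside 19.3% of the 15314 shared sites with such peaks. Both IM values were above both SAM values at 3 of the 4 sites higher in the IM, beside 21.1%.

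**Figure D5:**
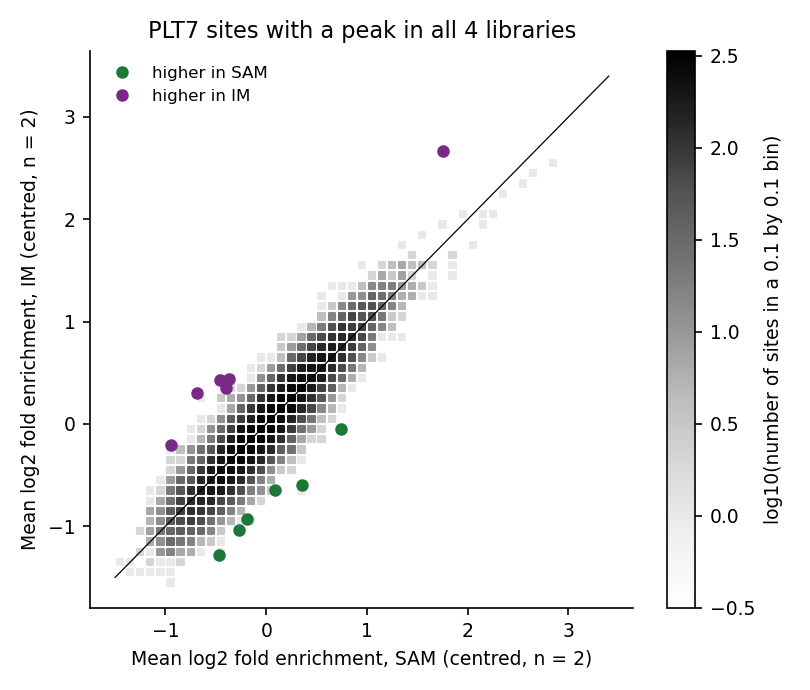
Mean log2 fold enrichment of shared sites in the SAM (x axis) and the IM (y axis), each library centred on its median, with the number of sites per bin in grey and the sites past the limma threshold in colour. The 6 sites higher in the SAM (green) and the 6 higher in the IM (purple) lie off the diagonal, at log2 differences of 0.74 to 0.97 and of -0.74 to -0.99.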

How the data were processed

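PLT7 was tested by DAP-seq on genomic DNA of SAMs and IMs with 2 replicates each, and samples were grouped by protein and tissue from their titles. The members and gene lists were chosen with earlier results of these data known. Per the labels, 100 ng of DNA was used with 15 PCR cycles, fragments above 200 bp were selected, and the submitters' processing notes name fastp 0.23.2, BWA 0.7.17, SAMtools 1.15 and MACS3. The authors called peaks in each library (q-value cut-off 0.1, gaps up to 100 bp joined), and the deposited lists are those from before replicates were merged or GFP peaks taken out. Column 7 as deposited is a fold enrichment, a ratio to local background with no control library. Significance as deposited is the −log10 of each peak's p-value and q-value, and the deposited score, derived from the q-value, was not used. Without a control library, copy number and base composition can enter the fold enrichment. Minimum peak widths differed, from 231 bp in SAM replicate 2 to 248 bp in the IM.

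Peaks were joined at 1 bp overlap with Python 3.11.15, pandas 2.3.3 and scipy 1.17.1. The summit of the highest peak was annotated with RefSeq genes of TAIR10.1, whose sequence names matched those of the files and which gave all sequences. Positions were assigned in the order coding exon, 5′ and 3′ untranslated exon, intron, pseudogene, non-coding gene, within 1500 bp upstream, within 500 bp downstream, intergenic. The highest peak per library at shared sites was log2-transformed with no pseudocount, centred on the library's median and fitted with limma 3.58.1 in R 4.3.3, a script tested on simulated data. Limma p-values and standard errors rest on the spread between 2 libraries per tissue. Each site's variance was drawn strongly towards that of all shared sites (33.3 prior degrees of freedom, prior SD 0.152 log2). Named sites were the 12 with the highest fold enrichment in the weaker replicate per tissue that touched no GFP peak, genes of the lists, genes with 2 or more sites limited to 1 tissue, and up to 10 shared nuclear sites per direction past the threshold. Alternatives concerned overlap, q-value, list length, GFP peaks, normalisation, gene windows, the replicate block and each library left out, and 3 concerning GC content were added after seeing the data. Replicate numbers were not taken as pairs. AIL1, SPL16 and TCP6 were not matched in the annotation.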

Additional observations from a re-analysis of the deposited data

How the results depend on the processing

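The numbers of SAM- and IM-limited sites were 752 and 939 with lists cut to equal length by fold enrichment and 702 and 910 by −log10 p, of which 222 and 827, and 231 and 802, were among the original sites. With 50% reciprocal overlap 723 sites were SAM-limited. Leaving out 1 library, which by construction relaxes the rule, gave 831 to 1726 SAM-limited and 2651 to 5236 IM-limited sites. Joining peaks up to 100 bp apart, a q-value below 0.01, removing GFP-overlapping sites or organelle sequences kept both numbers within 1.5 times. Across the alternatives, the median GC content was 32.7 to 35.6% at SAM-limited and 38.6 to 41.6% at IM-limited sites.

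The calls at shared sites depended on the scaling, and the cause was not tested. Sites higher in the SAM and in the IM numbered 1 and 18 with no centring, 2 and 5 after quantile normalisation, 1 and 0 with normal scores of the rank, 18 and 25 with a pseudocount of 1, 28 and 3 with −log10 p, and 0 and 4 at sites with 1 peak per library. None of the 12 sites was called with normal scores, where 2543 sites had an unadjusted p below 0.05. Leaving out 1 library gave 0 to 154 and 1 to 142. With the replicate block the counts were 126 and 91, although the replicate differences of the tissues correlated at only 0.15 over 2 pairs. Removing the GC trend left 1 and 2, and with the block 4 and 12.

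The preference of PLT3 and PLT5 libraries remained positive in all alternatives, from 1.15 with equal lists to 1.96 without SAM PLT3 replicate 1. With labels exchanged over all 8 libraries the same 1.61 had an exact permutation p of 0.0286, which takes the 8 libraries as independent. With labels exchanged within protein, the exact p went from 0.0556 to 0.167 without IM PLT3 replicate 1 or 2, with differences of 1.47 and 1.57. Each tissue has 2 libraries, which limits every comparison, and read depth was not analysed here.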

Other observations

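Genes with 2 sites limited to the same tissue in their window were few, 3 of 193 protein-coding genes for the SAM (1.55%) and 13 of 844 for the IM (1.54%). In the SAM these were AT3G48970 and AT3G48980, which share both sites, and AT5G56040, with fold enrichments between 1.99 and 3.11, and the non-coding gene AT2G06635 had a further pair. Each of these SAM pairs included a site that overlapped a GFP peak. In the IM they included FH4, a formin, with sites 590 bp upstream and 268 bp downstream of its start, KT5, with sites 1462 bp upstream and 203 bp downstream, AGD6, with sites 435 and 984 bp upstream, and APE2, the triose phosphate translocator of the chloroplast, with sites 551 bp upstream and 324 bp downstream. Fold enrichments at these 4 genes lay between 1.87 and 3.30. The others were AT1G06650, AT2G14255, AT2G28080, AT3G09310, AT3G52075, AT4G02480, AT5G06040, AT5G20130 and AT5G22794, and the pseudogene AT3G30703 had a pair as well. In the IM, GFP peaks overlapped the upstream sites of APE2, AT2G14255 and AT4G02480 and no other site of these pairs.

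Organelle DNA held 61 mitochondrial and 62 chloroplast sites. Of these, 52 and 53 were shared, with a median log2 difference between SAM and IM of 0.07 and 0.13, and 1 chloroplast site was SAM-limited and 1 mitochondrial site IM-limited. The mitochondrial site that was 1.90-fold higher in the IM (limma adjusted p = 0.00530) was 1 of 11 shared mitochondrial sites with the higher mean in the IM, beside 41 with the higher mean in the SAM. Of the shared chloroplast sites, 10 had the higher mean in the IM and 43 in the SAM. Of the shared nuclear sites, 10798 and 10671 did.

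Peaks of tissue-limited sites were narrow. In SAM replicate 2, 121 of the 403 peaks at SAM-limited sites were under 250 bp, against 1493 of 21574 at shared sites (6.92%), and the narrowest peak of that list had 231 bp. In IM replicate 1 the shares under 250 bp were 2.38% at IM-limited and 0.111% at shared sites, with a narrowest peak of 248 bp.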
